A study of Rattus norvegicus with 15 samples.

Results

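Nucleus accumbens RNA from rats killed after 30 days of withdrawal from cocaine, with no test of drug seeking (30W), was compared with RNA from rats killed after 1 day, also with no test (1W). The arrays were chosen by their sample titles alone, 3 of 30W and 3 of 1W out of 15 in the series, and the comparison was described across the 11778 genes with 1 platform symbol that passed a filter on low signal. The series concerns the incubation of cocaine craving, in which cue-induced drug seeking is stronger after long than after short withdrawal, and it measured gene expression in the nucleus accumbens of male Sprague-Dawley rats weighing 250 to 350 g. The question that 30W against 1W addresses is how expression differs with withdrawal length before any seeking test. All rats had a jugular catheter implanted under xylazine and ketamine, and the protocol also speaks of a cannula without giving its place. The 1W and 30W rats then pressed a lever for a light cue and cocaine at 0.75 mg/kg per infusion, 6 hours a day for 10 days, and were left in forced abstinence for 1 or 30 days. The other cocaine groups, 1C and 30C, had the same 1 and 30 days of withdrawal followed by an extinction test. Sal rats self-administered saline under the same conditions, and the labels give them neither a withdrawal time nor a test. The 30W rats were therefore also about a month further from surgery and training than the 1W rats, which withdrawal length cannot be told apart from. Each group had 3 arrays, and it is not stated if the RNA of an array came from 1 rat or more, so the p-values measure only the spread between these samples.

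The nucleus accumbens is the ventral part of the striatum and consists mostly of GABAergic spiny projection neurons that receive glutamate from cortex, amygdala and hippocampus and dopamine from the midbrain. Microglia are its resident immune cells, oligodendrocytes wrap its passing axons in myelin, and endothelial cells line its vessels. Interferons are cytokines that switch on a common set of antiviral and antigen presentation genes through STAT and IRF factors that bind the interferon-stimulated response element in their promoters.

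The values are the deposited RMA log2 intensities, so a difference of 1 is a doubling of signal. Markers of striatum were high, which does not tell the nucleus accumbens from the rest of the striatum. On the 6 arrays compared, Penk lay between 12.59 and 12.92, the striatal phosphoprotein gene Ppp1r1b between 12.01 and 12.39, Adora2a between 11.13 and 11.62, Drd2 between 11.33 and 11.88 and Drd1 between 9.68 and 10.31. Correlations between any pair of the 15 arrays lay between 0.9929 and 0.9967. Some arrays stood apart within their group. Ttr, the transthyretin gene of choroid plexus, was at 10.20 on 30W replicate 3 and between 5.55 and 6.79 on the other 5 arrays of 1W and 30W. The score of 22 cortical projection neuron markers (the mean over its genes of the deviation from each gene's mean over the 15 arrays) was -0.31 on 1W replicate 3 and between -0.03 and 0.13 on the other 5. The score of 39 spiny neuron markers was -0.22 on 1W replicate 1 and 0.25 on 1W replicate 3, with 30W between -0.03 and 0.08. Interferon-induced genes were high on 30W replicates 1 and 3, as described with those genes. The lower quartile of the arrays also separated the groups. The 25th percentile of all probe sets was 5.535 to 5.590 on 30W and 5.475 to 5.497 on 1W arrays (exact permutation p = 0.1, two-sided, the smallest that 3 against 3 arrays can give). With the tested rats added, it was 5.535 to 5.590 on 30W and 30C and 5.475 to 5.509 on 1W and 1C arrays. These 6 and 6 arrays did not overlap (exact permutation p = 0.0022, two-sided).

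No gene passed the adjusted test between 30W and 1W, so the values that follow describe these arrays. The lowest unadjusted p-values went to genes lower in 30W, which were Cd180, Spata32, Dapp1 and the fractalkine receptor gene Cx3cr1, and among the genes higher in 30W were the major histocompatibility gene RT1-CE13 and the antiviral gene Bst2. Markers of microglia, oligodendrocytes and endothelial cells were nearly all lower in 30W, and interferon-induced genes were mostly higher. The dopamine receptor genes Drd1 and Drd2 and the AMPA receptor genes Gria1 and Gria2 differed by at most 0.13 either way. In limma, with 1 fit over the 15 arrays, 0 of 11778 genes (0.0%) passed at an adjusted p of 0.05, and the smallest adjusted p was 0.115. At an unadjusted p of 0.05, 1188 genes (10.1%) were counted, 493 higher (4.19%) and 695 lower (5.9%) in 30W, and this count was 720 without 30W replicate 2. Of all genes, 4670 (39.7%) were higher and 7108 lower in 30W. The median difference over all genes was -0.02, and all but the outer 5% at either end lay between -0.17 and 0.16. Arrays that did not overlap between the groups were found for 651 genes higher (5.53%) and 1237 lower (10.5%) in 30W.

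Cd180 encodes a Toll-like receptor homologue of B cells and myeloid cells. Its 1W arrays read 8.23, 8.28 and 8.09 and its 30W arrays 7.86, 7.59 and 7.61. Every 30W array lay below every 1W array, and the Sal arrays, at 7.94, 7.92 and 7.79, lay mostly between them. The difference was -0.51 (SE 0.075, unadjusted p = 1.07e-05, limma adjusted p = 0.115), the smallest p of all genes. Without 30W replicate 1, the highest of its group, Cd180 passed (limma adjusted p = 0.0123, with 0.0123 to 0.498 over all alternatives). Ly86, whose product MD-1 binds the Cd180 protein on the cell surface, was at 7.38, 7.42 and 7.22 in 1W and 7.15, 7.15 and 7.10 in 30W. Its arrays did not overlap either, with a difference of -0.21 (SE 0.069, limma adjusted p = 0.375).

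Dapp1 encodes an adaptor that binds phosphoinositides below the B cell receptor. It was at 7.07, 6.95 and 7.03 in 1W and 6.74, 6.50 and 6.67 in 30W, a difference of -0.38 (SE 0.062, limma adjusted p = 0.115). The groups did not overlap, and all 3 Sal arrays, between 6.83 and 6.90, lay in the gap. Inpp5d, which encodes the phosphatase SHIP1 that acts on the same lipids, was at 7.72, 7.69 and 7.65 in 1W and 7.57, 7.39 and 7.52 in 30W (difference -0.20, SE 0.079, limma adjusted p = 0.449). Of 17 tested genes of this kind of signalling, 14 were lower in 30W, where 7108 of all 11778 genes were lower. At an unadjusted p of 0.05, 4 of the 17 were lower (23.5%, against 5.9% of all genes lower). Dapp1, a leading gene of this same comparison, is 1 of the 4, so the share is no separate support for it. The median of the 17 was -0.06 (-0.09 to -0.02 over the scalings described further on). The count of 4 was 1 without 1W replicate 1 and 2 without 30W replicate 1 or 2.

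Spata32, a testis gene by name, was at 6.40, 6.41 and 6.41 in 1W and 6.14, 6.07 and 6.15 in 30W (difference -0.29, SE 0.046, limma adjusted p = 0.115). It lies near the low end of the signal range, and its arrays were clearly separated. Other leading genes lower in 30W were Borcs7, a subunit of the complex that positions lysosomes (-0.22), Serinc5, a membrane protein that restricts retroviruses (-0.38), Vsir, the immune checkpoint receptor VISTA (-0.24), and Fez2 (-0.24). Rpl15, of the large ribosomal subunit, was at -0.36, but ribosomal protein genes have many near-identical copies and this value is uncertain. Hgh1 was at -0.27, Mapk1ip1l at -0.23 and Tmod4, which caps actin filaments in muscle, at -0.22. For all 14 leading genes in this direction the Sal mean lay between the 1W and 30W means. They were chosen for the distance between 1W and 30W, so another group tends to fall between, and the count does not place Sal. The limma adjusted p-values of the 14 ran from 0.115 to 0.343.

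**Figure D1:**
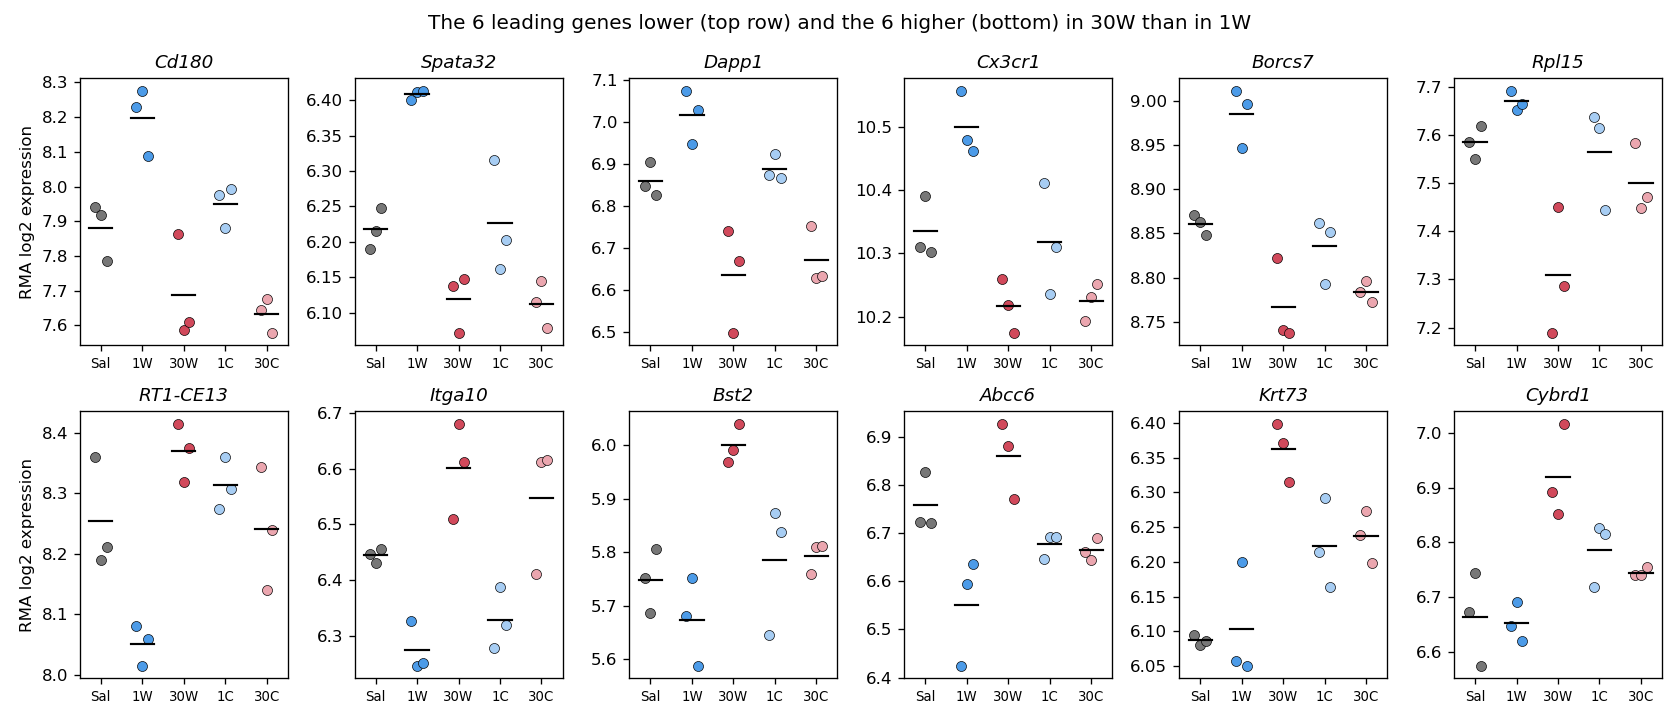
RMA log2 expression (y axis, a separate range in each panel) of the 6 leading genes lower in 30W (top row) and the 6 higher (bottom row) in the 5 groups (x axis); points are arrays and bars are group means, n = 3. In each panel the 30W and 1W points do not overlap, as for Cd180, with 7.59 to 7.86 in 30W and 8.09 to 8.28 in 1W.

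Among the genes higher in 30W, RT1-CE13, a classical or near-classical MHC class I gene of the rat, came first. It was at 8.08, 8.01 and 8.06 in 1W and 8.42, 8.32 and 8.37 in 30W, and the Sal arrays lay at 8.36, 8.19 and 8.21. The difference was 0.32 (SE 0.059, limma adjusted p = 0.167), and since class I genes of the rat are near-identical copies its probes may read several of them. Itga10, an integrin subunit for collagen, was at 6.33, 6.25 and 6.25 in 1W and 6.51, 6.68 and 6.61 in 30W (0.33, SE 0.061, limma adjusted p = 0.167). Its arrays did not overlap, and Sal lay between, at 6.43 to 6.46. Evx1, a homeobox gene, was at 6.45, 6.39 and 6.41 in 1W and 6.66, 6.80 and 6.56 in 30W (0.25, SE 0.056, limma adjusted p = 0.317), and here Sal, at 6.34 to 6.45, lay with 1W.

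Itga10 and Evx1, at mean levels of 6.44 and 6.50, lay at low signal, as did the rest of this group. The transporter gene Abcc6 (0.31), the hair follicle keratin Krt73 (0.26), the ferric reductase gene Cybrd1 (0.27) and Pex11g, of peroxisome division (0.29), were higher on all 3 30W arrays than on any 1W array. So were Gata5, a transcription factor of heart and gut (0.25), Trim45 (0.26), and 4 genes of families with near-identical members whose values are uncertain, the olfactory receptors Or2ak4c (0.31) and Or1f20d (0.45), the defensin Defb20 (0.39) and the kallikrein Klk1c6 (0.24). Of the 14 leading genes higher in 30W, 13 had a mean level below the median of all genes tested, with RT1-CE13 the exception, against 8 of the 14 lower ones. In 11 of the 14 the Sal mean lay between the 1W and 30W means, a count shaped by the same choice of genes. Over every alternative setting that was run, all 28 leading genes kept the sign of their difference. They were chosen for arrays that do not overlap, so leaving out an array could not reverse it, and the count is no support for them.

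The direction of the differences followed the level of the gene. In the lowest of 8 bins of mean level, from 4.75 to 6.34, the median difference was 0.07, and 182 genes were higher against 23 lower at an unadjusted p of 0.05. In the fourth to the eighth bin the median lay between -0.05 and -0.03, with 8 to 27 genes higher and 66 to 131 lower in each. Whatever the p-value, 74.6% of genes were higher in the lowest bin and 63.2% in the second. In the fourth to the eighth bin the share was between 21.6% and 30.5%. Counts of list members by sign are to be read beside these shares. The lower quartile of the arrays moves with this pattern, and its part in the counts was not tested beyond rescaling. The split of the unadjusted calls depended on the scaling, with 41.5% of them higher as deposited, 50.6% after a further quantile normalization, 55.8% with the arrays brought to 1 lower and 1 upper quartile, and 77.5% after median centring. The median of each list in the next paragraphs is therefore given with its range over these scalings and over subtraction of the median of the gene's bin. The median over all genes moved to 0.00, 0.01 and 0.02 in the same order.

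**Figure D2:**
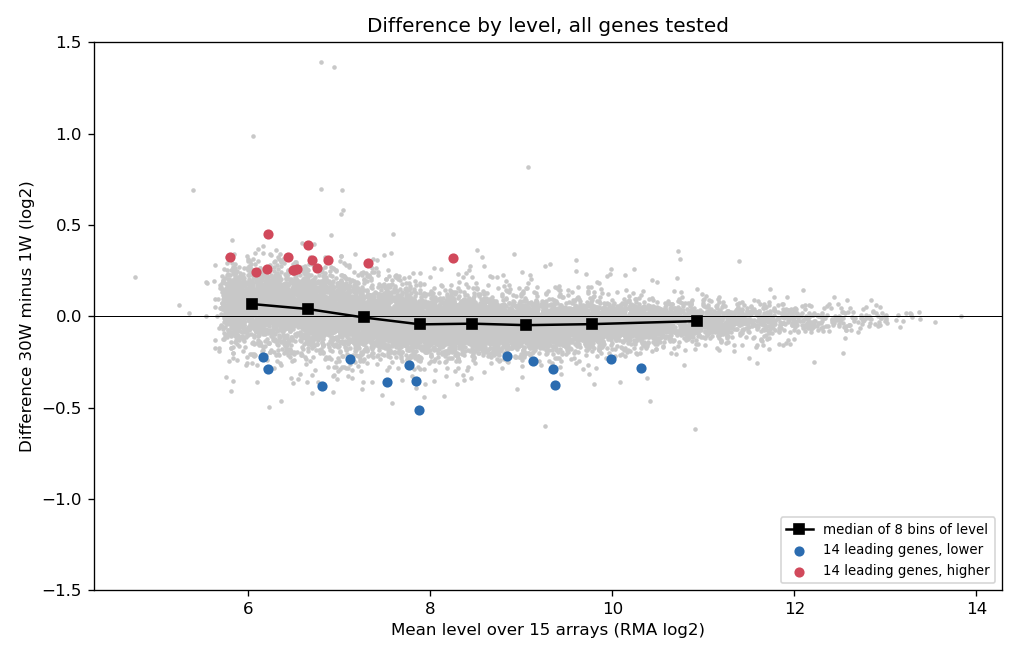
Difference 30W minus 1W (log2, y axis) against the mean level over 15 arrays (RMA log2, x axis) for 11778 genes (grey), with the median of 8 bins (squares) and the leading genes in colour. The bin medians run from 0.07 at the lowest level to -0.05 and -0.03 at higher levels, and 13 of the 14 leading genes that were higher lie in the lower part of the range.

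Interferon-induced and antigen presentation genes were the group with the highest share of members higher in 30W at an unadjusted p of 0.05 among the lists described here. Of 47 listed genes 41 had a value, 8 of these did not pass the filter, and 33 were tested. Of these, 30 were higher and 3 lower in 30W, where 63.2% of genes in the level bin of their median were higher. At an unadjusted p of 0.05, 12 of the 33 (36.4%, against 4.19% of all genes) were higher and 0 lower. The median difference was 0.16, against -0.02 over all genes, and stayed positive over the scalings (0.15 to 0.21). Promoters are shown before the values, since interferon acts on many of these genes through one known element. In RefSeq's promoter table, build GRCr8, 29 of the 33 genes had an entry. The interferon-stimulated response element was searched as GAAANNGAAA on both strands in the 250 bases before the gene start. It was found in 16 of 29 (55.2%), in 9 of the 11 with an unadjusted p under 0.05 (81.8%), and in 902 of 27457 promoters of all genes (3.29%). The motif can overlap itself, as it does in Bst2 and Oas1a. The list was made of genes known to respond to interferon, so a share above that of all promoters was built in. The higher share among the 11 was not tested against the rest of the list. These shares describe the list and not the difference between the groups. A match describes the letters and is no shown binding site. The 150 bases before the gene start follow for 6 genes whose difference is given below, 5′ to 3′ on the strand of the gene, with each match in capitals (read as TTTCNNTTTC where it lies on the other strand). Bst2 is at chr16:18254968-18255117, minus strand, Gbp2 at chr2:234005577-234005726, plus strand, Gbp5 at chr2:233910849-233910998, plus strand, Irf7 at chr1:205800024-205800173, minus strand, Oas1a at chr12:41330316-41330465, plus strand, and Irgm at chr10:33742579-33742728, minus strand.
Bst2: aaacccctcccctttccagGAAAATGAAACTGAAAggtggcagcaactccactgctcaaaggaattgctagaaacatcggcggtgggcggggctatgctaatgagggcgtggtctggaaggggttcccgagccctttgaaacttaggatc
Oas1a: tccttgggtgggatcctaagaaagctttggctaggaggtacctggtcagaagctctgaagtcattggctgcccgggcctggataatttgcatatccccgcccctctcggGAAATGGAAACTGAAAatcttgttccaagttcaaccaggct
Irgm: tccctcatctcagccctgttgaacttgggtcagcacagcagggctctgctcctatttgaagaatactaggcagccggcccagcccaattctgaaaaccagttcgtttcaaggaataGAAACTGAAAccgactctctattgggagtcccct
Irf7: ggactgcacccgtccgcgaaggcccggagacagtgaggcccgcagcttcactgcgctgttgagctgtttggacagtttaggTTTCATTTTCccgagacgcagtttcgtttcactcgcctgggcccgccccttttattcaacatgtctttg
Gbp2: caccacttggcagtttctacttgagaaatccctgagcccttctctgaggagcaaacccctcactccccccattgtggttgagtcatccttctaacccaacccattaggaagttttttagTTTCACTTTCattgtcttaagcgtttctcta
Gbp5: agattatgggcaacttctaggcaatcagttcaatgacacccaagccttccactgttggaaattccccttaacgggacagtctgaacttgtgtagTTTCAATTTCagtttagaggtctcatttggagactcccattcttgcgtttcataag

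Bst2, or tetherin, holds budding viruses at the cell surface. It was at 5.68, 5.75 and 5.59 in 1W and 5.97, 5.99 and 6.04 in 30W, with Sal between 5.69 and 5.81. The groups did not overlap and the 30W arrays lay close together, a difference of 0.33 (SE 0.062, limma adjusted p = 0.167). Its signal is low, in the lowest level bin, where the median difference was 0.07, and less that median Bst2 was at 0.26. Psmb8, a subunit of the immunoproteasome, was at 5.78, 5.89 and 5.85 against 6.03, 5.92 and 6.08 (0.17, SE 0.061, limma adjusted p = 0.399). It lies in the same bin and was at 0.11 less the bin median. Ifit2, which binds viral RNA, was at 6.63, 6.62 and 6.64 against 6.94, 6.72 and 7.01 (0.25, SE 0.086, limma adjusted p = 0.376). These 2 genes did not overlap either, but their lowest 30W array was replicate 2 in both.

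A second set of members was high on only some of the 30W arrays, and these genes were picked after their values were seen. Cxcl10, a chemokine for T cells, was at 6.16, 6.65 and 6.54 in 1W and at 8.51, 6.53 and 8.42 in 30W. Replicate 2 of 30W lay within the 1W range, and the difference of 1.36 (SE 0.606, limma adjusted p = 0.485) came from replicates 1 and 3. Gbp2, a guanylate-binding protein of the interferon response, was at 6.84, 6.87 and 6.63 against 8.06, 6.71 and 7.65 (0.69, SE 0.304, limma adjusted p = 0.481). Gbp5 was at 6.60, 6.66 and 6.41 against 7.74, 6.61 and 7.40 (0.70, SE 0.265, limma adjusted p = 0.416). Irgm, an interferon-induced GTPase, was at 6.81, 6.69 and 6.63 against 7.41, 6.79 and 7.26 (0.45, SE 0.128, limma adjusted p = 0.373), and again replicate 2 overlapped 1W. Irf7, the factor that amplifies interferon production, showed the same order, at 6.69, 6.61 and 6.83 against 7.21, 6.74 and 6.96 (0.26, SE 0.109, limma adjusted p = 0.465). Oas1a, which senses double-stranded RNA, was high on replicate 1 alone, at 6.17, 5.99 and 5.77 against 6.91, 6.01 and 6.18 (0.39, SE 0.176, limma adjusted p = 0.491).

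Averaged into a score, the list stood at 0.27, -0.09 and 0.27 in 30W and at -0.05, -0.04 and -0.17 in 1W. The array of 30W with the low score lay within the range of 1W, and 1C replicate 2 had the highest score of all 15 arrays, 0.30. Leaving out 30W replicate 3 took the count of members higher at an unadjusted p of 0.05 to 5, and leaving out either 1W replicate 2 or 1W replicate 3 took it to 7. In 30C against 1C, on other arrays, 21 of the 33 members were negative and the median was -0.05, with 2 higher and 0 lower at an unadjusted p of 0.05. The interaction between withdrawal length and the test was 2.49 for Cxcl10 (unadjusted p = 0.012, limma adjusted p = 0.999) and 0.39 for RT1-CE13 (unadjusted p = 0.000407, limma adjusted p = 0.999). Neither passed, so a difference between untested and tested rats was not shown for them.

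**Figure D3:**
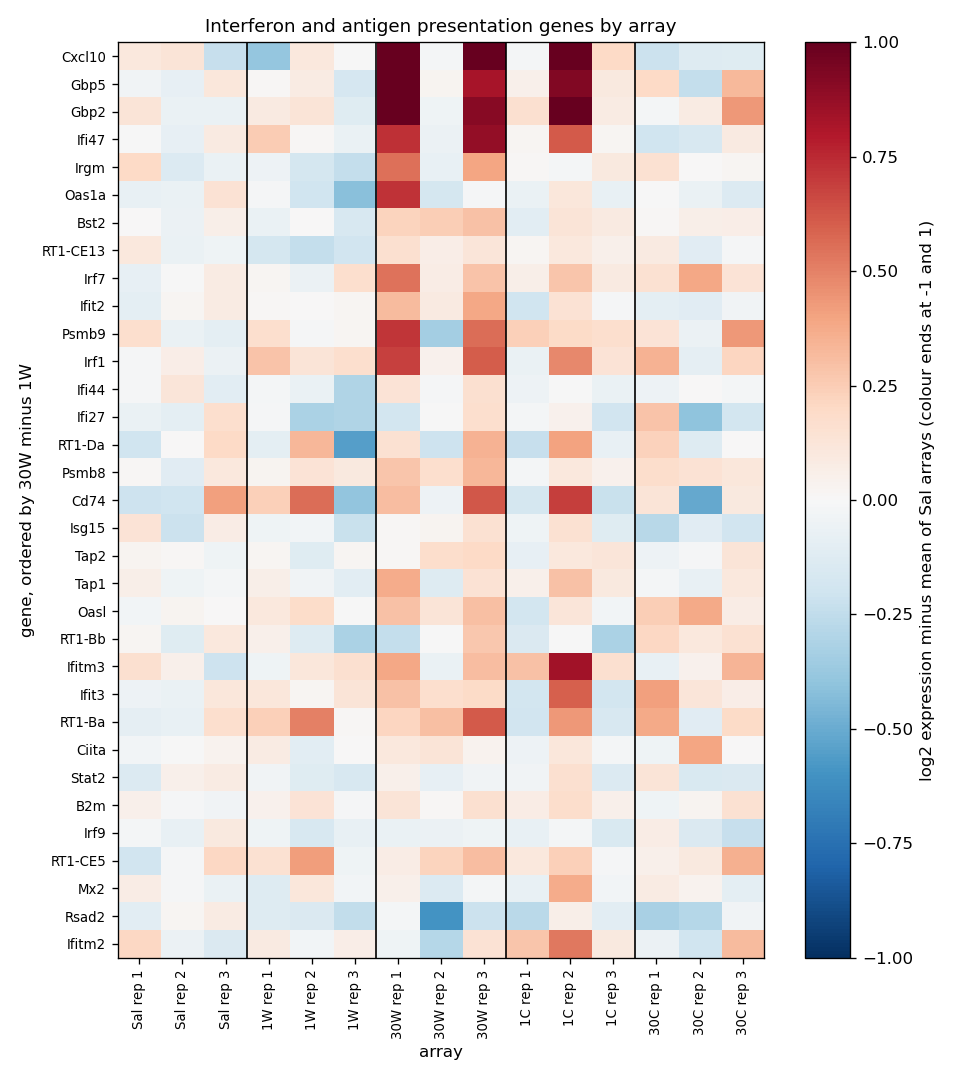
Log2 expression of the 33 tested interferon and antigen presentation genes (rows, ordered by the difference 30W minus 1W) on each of the 15 arrays (columns), as the difference from the mean of the 3 Sal arrays; red is higher, blue is lower, and colours end at -1 and 1. The upper rows are red on 30W replicates 1 and 3 and on 1C replicate 2, whereas Bst2, at low signal, is raised on all 3 30W arrays.

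Microglia markers were lower in 30W in 32 of 35 tested members, where 7108 of all 11778 genes were lower. Of the genes in the level bin of their median, 29.3% were higher. Of the 35, 9 were lower at an unadjusted p of 0.05 (25.7%, against 5.9% of all genes) and 0 higher. The median difference was -0.12 and stayed negative over the scalings (-0.12 to -0.07). Beside Cx3cr1 and Gpr34 the lowest unadjusted p-values belonged to P2ry13, Cd53 and Csf1r. Cx3cr1, by which microglia sense neuronal fractalkine, was at 10.56, 10.48 and 10.46 in 1W and 10.26, 10.22 and 10.17 in 30W (-0.28, SE 0.051, limma adjusted p = 0.167), with Sal between 10.30 and 10.39. Gpr34, a receptor for lysophosphatidylserine, was at 8.16, 8.05 and 8.04 against 7.70, 7.72 and 7.77 (-0.36, SE 0.078, limma adjusted p = 0.317). Cd53, a leukocyte tetraspanin, was at 9.15, 8.86 and 9.07 against 8.81, 8.72 and 8.81 (-0.25, SE 0.076, limma adjusted p = 0.373). In all 3 genes the groups did not overlap. Csf1r, the receptor for the growth factor on which microglia depend, was at 10.18, 9.97 and 10.00 against 9.85, 9.82 and 9.87 (-0.20, SE 0.064, limma adjusted p = 0.375), and P2ry13, a nucleotide receptor, had a difference of -0.28. The homeostatic markers Tmem119 (-0.16) and P2ry12 (-0.17) and the complement gene C1qb (-0.19) were lower without reaching an unadjusted p of 0.05.

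As a score, the microglia list stood at 0.16, 0.07 and 0.01 in 1W and at -0.02, -0.07 and -0.03 in 30W, so the 1W arrays were the higher ones and spread more. Against Sal the median was 0.11 for 1W and -0.02 for 30W. These comparisons share their arrays with 30W against 1W. The count of lower members at an unadjusted p of 0.05 was 14 without 1W replicate 3 and went down to 6 leaving out other arrays. It was 9 after a further quantile normalization, 8 with common quartiles and 6 after median centring. Of 15 markers of activated microglia, 8 were higher and 7 lower in 30W, and 0 had an unadjusted p under 0.05. In bulk tissue, fewer cells of a type and less RNA per cell cannot be told apart.

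The myeloid factor PU.1 binds ETS sites, and the form GAGGAAG was searched on both strands in the same window. It was found in 8 of the 22 microglia promoters in the table (36.4%) and in 10.12% of all promoters. The interferon element was found in 2 of these 22. Both shares describe a list chosen as microglia markers and not the difference between the groups. The sequences of Cd53, from this list, and of Dapp1 are shown as examples of genes lower in 30W that hold it (in capitals, as CTTCCTC on the strand of the gene), at chr2:197087897-197088046, minus strand and chr2:229148844-229148993, minus strand.
Cd53: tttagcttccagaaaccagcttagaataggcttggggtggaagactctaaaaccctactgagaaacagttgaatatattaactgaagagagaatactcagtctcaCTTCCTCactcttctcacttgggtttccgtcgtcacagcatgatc
Dapp1: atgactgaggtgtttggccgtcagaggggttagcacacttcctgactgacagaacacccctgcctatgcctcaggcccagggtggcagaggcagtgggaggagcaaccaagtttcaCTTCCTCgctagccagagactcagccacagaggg

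Oligodendrocyte genes were lower in 30W in 33 of 34 tested members, 7 of them at an unadjusted p of 0.05 (20.6%, against 5.9% of all genes), and the exception was Cryab. Of the genes in the level bin of their median, 23.2% were higher. The median of the list was -0.12 and negative over the scalings (-0.12 to -0.05). Fa2h, which hydroxylates the fatty acids of myelin lipids, was at 9.61, 9.62 and 9.48 in 1W and 9.30, 9.27 and 9.29 in 30W (-0.29, SE 0.066, limma adjusted p = 0.343). Ugt8, which makes the galactolipids of myelin, was at 9.80, 9.68 and 9.47 against 9.28, 9.32 and 9.40 (-0.32, SE 0.086, limma adjusted p = 0.373). In both genes 1W replicate 3 was the lowest 1W array, and the groups still did not overlap. Mag, a myelin adhesion molecule, was at -0.17 and Pllp, a myelin proteolipid, at -0.20. Cryab, a small heat shock protein that oligodendrocytes hold, was at 11.32, 11.47 and 11.01 against 11.61, 11.56 and 11.53 (0.30, SE 0.12, limma adjusted p = 0.439), with no overlap. As a score the list stood at 0.21, 0.17 and -0.02 in 1W and between -0.04 and 0.05 in 30W, so that 1W replicate 3 lay within 30W. The count of lower members was 18 without 1W replicate 3, 2 without 1W replicate 1 or 2, 4 without 30W replicate 1 and 3 without 30W replicate 3. It was 3 after a further quantile normalization and 2 after median centring or common quartiles.

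Precursor markers were lower in 14 of 18 members, with a median of -0.12 (-0.12 to -0.07 over the scalings) and 4 members lower at an unadjusted p of 0.05 (22.2%, against 5.9% of all genes). In the level bin that holds their median level, 21.6% of genes were higher in 30W, so the count by sign is near that share. Vcan, a proteoglycan of the matrix, was at 8.36, 8.37 and 8.26 in 1W and 8.04, 8.13 and 8.13 in 30W (-0.23, SE 0.062, limma adjusted p = 0.373). Gpr17, which marks precursors about to differentiate, was at 9.73, 9.83 and 9.80 against 9.51, 9.56 and 9.53 (-0.25, SE 0.086, limma adjusted p = 0.375). Neither overlapped. Sox6, a transcription factor of precursors and of some interneurons, was at -0.23, and C1ql1 at -0.21. The count was 7 without 1W replicate 3 and went down to 3 leaving out other arrays.

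Endothelial markers were lower in all 21 tested members, where 27.9% of genes in the level bin of their median were higher. The markers ran from -0.23 to -0.02, with a median of -0.11 (-0.11 to -0.07 over the scalings). At an unadjusted p of 0.05 there were 5 (23.8%, against 5.9% of all genes), which were Sox18 (-0.23) and Sox17 (-0.18), transcription factors of vessels, the amino acid transporter Slc7a5 (-0.20), the efflux pump Abcb1a (-0.14) and Kdr, the main VEGF receptor (-0.13). Their arrays did not overlap, as held for 10.5% of all genes in this direction, and none passed the adjusted test. The count was 0 without 30W replicate 1, 2 without 1W replicate 1 or 2 and 3 without 1W replicate 3. It was 2 after a further quantile normalization or common quartiles and 1 after median centring. Pecam1 (-0.02) and Cldn5 (-0.03), widely used markers of these cells, lay near 0.

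Red cell genes were lower in 6 of 7 tested members, 2 of them at an unadjusted p of 0.05 (28.6%, against 5.9% of all genes), and 1 was higher. In 30C against 1C 6 of the 7 were lower, 4 of them at an unadjusted p of 0.05, where 3.07% of all genes were. Hbb, a beta globin, was at 10.59, 10.54 and 10.80 in 1W and 10.22, 9.86 and 10.44 in 30W (-0.47, SE 0.155, limma adjusted p = 0.375), and its probes may read other globin genes. Alas2, the first enzyme of haem synthesis in red cells, was at 7.45, 7.39 and 7.64 against 7.13, 6.92 and 7.34 (-0.36, SE 0.117, limma adjusted p = 0.375). Epb42, a red cell membrane protein, was the higher one, at 5.47, 5.60 and 5.77 against 6.07, 5.77 and 5.97 (0.32, SE 0.123, limma adjusted p = 0.416). The median of the 7 tested members was -0.14 (-0.20 to -0.09 over the scalings). The part of blood left in the tissue in other results was not tested. Cholinergic interneuron markers had the lowest median of the lists shown, -0.19 (-0.19 to -0.15 over the scalings), with 11 of 12 lower, but 0 members had an unadjusted p under 0.05. Their score was 0.32 on 1W replicate 1 and between -0.12 and 0.10 on the other 5 arrays. Of the genes in the level bin of their median, 27.9% were higher in 30W.

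**Figure D4:**
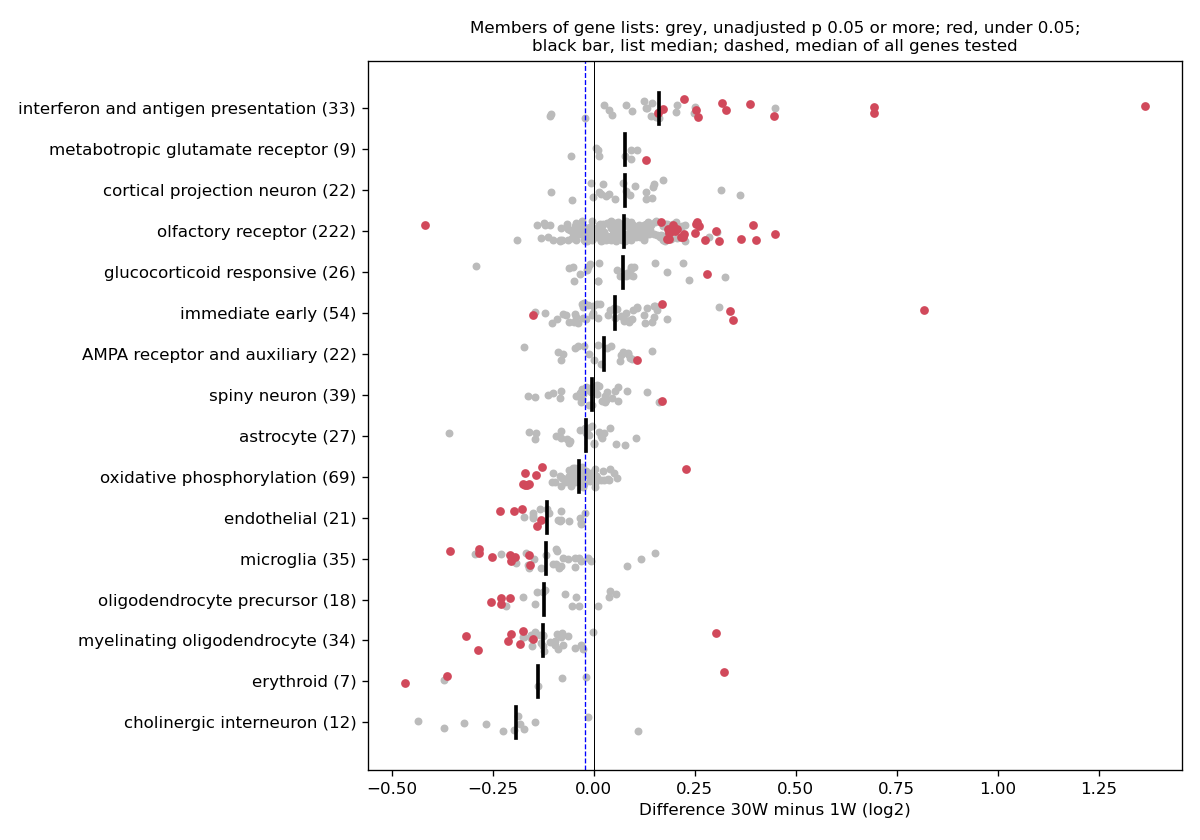
Difference 30W minus 1W (log2, x axis) for the tested members of 16 gene lists (y axis, number tested in brackets); red points have an unadjusted p under 0.05, black bars are list medians and the dashed line is the median of all genes, -0.02. The interferon list lies furthest to the right, with a median of 0.16, and the microglia, endothelial and oligodendrocyte lists lie to the left, between -0.12 and -0.11. Further left are the cholinergic interneuron list, at -0.19, and the erythroid list, at -0.14.

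Genes of synaptic transmission leaned both ways. The dopamine receptor genes Drd1 and Drd2 had differences of 0.13 (SE 0.171) and -0.02 (SE 0.153), and Penk, Pdyn, Tac1 and Ppp1r1b, of the spiny neurons, lay between -0.16 and 0.03. The signs of Drd1, Drd2, Penk, Pdyn, Tac1 and Ppp1r1b changed under at least 1 alternative. The spiny neuron list was higher in 18 and lower in 21 of 39 members, with a median of 0.00 that ran up to 0.11 over the scalings. Gria2, the AMPA receptor subunit that blocks calcium entry, was at 11.61, 11.74 and 11.77 in 1W and 11.82, 11.80 and 11.81 in 30W. The arrays did not overlap, and the difference was 0.11 (SE 0.048, unadjusted p = 0.0453, limma adjusted p = 0.491). It was the 1 member of 22 AMPA receptor and auxiliary genes with an unadjusted p under 0.05. Gria1, the subunit that forms calcium-permeable receptors, was at 11.16, 11.34 and 11.37 against 11.37, 11.42 and 11.35, which overlap (0.10, SE 0.055, limma adjusted p = 0.579). All 8 kainate and delta receptor genes tested were lower in 30W, with a median of -0.11 (-0.11 to -0.02 over the scalings). In the level bin that holds their median level, 23.2% of genes were higher. Grid1, a delta receptor, was at 10.28, 10.35 and 10.36 against 10.15, 10.18 and 10.21 (-0.15, SE 0.05, limma adjusted p = 0.375), without overlap. Of 9 metabotropic receptor and scaffold genes 8 were higher, with a median of 0.08 (0.08 to 0.12 over the scalings). Grm5 was at 0.09 and Homer3, a scaffold of group I glutamate receptors, at 0.13 (SE 0.052, limma adjusted p = 0.439). Of 8 NMDA receptor genes, 3 were higher and 5 lower, with a median of -0.03 that ran up to 0.04 over the scalings. Grin2b was at -0.03, and Grin3b, a subunit that lowers calcium entry, was higher without overlap (0.22, SE 0.081, limma adjusted p = 0.404). Genes of dopamine and cAMP signalling were higher in 12 and lower in 26 of 38, with a median of -0.03 that ran up to 0.05 over the scalings. Maoa, which breaks down monoamines, was at 9.27, 9.12 and 9.24 against 8.97, 8.97 and 9.07, without overlap (-0.20, SE 0.069, limma adjusted p = 0.375). Bdnf, the growth factor gene, was at 0.11 (SE 0.151), Ntrk2, its receptor, at -0.02, Cdk5 at -0.06 and Dnmt3a at -0.04. Under at least 1 alternative the signs of Bdnf, Ntrk2, Cdk5, Dnmt3a, Grm5 and Grin2b changed as well.

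Immediate early genes, the first to be transcribed when neurons fire, were higher in 33 and lower in 21 of 54 members, 4 higher (7.4%, against 4.19% of all genes) and 1 lower at an unadjusted p of 0.05, which is near the share over all genes. Their median was 0.05 and positive over the scalings (0.05 to 0.10). Npas4 was at 8.14, 8.71 and 8.55 in 1W and 9.78, 8.42 and 9.66 in 30W (0.82, SE 0.371, limma adjusted p = 0.491). As for Cxcl10, replicate 2 of 30W lay within the 1W range. Fos was at 7.03, 7.26 and 7.28 against 7.61, 7.35 and 7.65, with no overlap (0.34, SE 0.154, limma adjusted p = 0.485), and Ccn1, which encodes a matrix protein, did not overlap either (0.34, SE 0.133, limma adjusted p = 0.433). The count of higher members was 0 without 30W replicate 1 and 1 without 30W replicate 3. It was also 1 if 1W replicate 1 was left out, and 2 if Sal replicate 2, 1C replicate 3 or 30C replicate 2 was.

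Genes of oxidative phosphorylation were lower in 51 and higher in 18 of 69 members. This is near the share in the highest level bin, which holds their median level and where 30.5% of genes were higher. The median difference of the list, -0.04, turned to 0.07 at the other end of the scalings, so the list has no settled direction. At an unadjusted p of 0.05, 7 were lower (10.1%, against 5.9% of all genes), among them the complex I genes Ndufa11 (-0.16) and Ndufs8 (-0.16), and 1 was higher. The count of lower members was 0 without 30W replicate 2, 2 without 1W replicate 1, 3 without 1W replicate 3 and 4 without 30W replicate 1. With common quartiles 1 was lower and 15 were higher. Olfactory receptor genes, which the brain should hardly express, are a reading of the low end of the scale. Of 1104 with a value 222 passed the filter, and 174 of these were higher in 30W with a median of 0.08. The median was 0.02 after subtracting that of genes at the same level. At an unadjusted p of 0.05, 23 were higher (10.4%, against 4.19% of all genes) and 1 lower, 15 without 1W replicate 1 and 35 without 30W replicate 3.

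The same withdrawal lengths were also compared after the extinction test, 30C against 1C, on 6 arrays that enter 30W against 1W only through the shared estimate of spread. There limma passed 0 genes (0.0%) and counted 646 (5.48%) at an unadjusted p of 0.05, 284 higher (2.41%) and 362 lower (3.07%). Of the 695 genes lower in 30W, 544 (78.3%) were also lower in 30C than in 1C, where 55.7% of all genes were. Of the 493 higher genes 369 (74.8%) were also higher, against 44.3% of all genes. The median of the lower genes was -0.16 in untested and -0.05 in tested rats, and that of the higher genes 0.20 and 0.05. At an unadjusted p of 0.05 in both, 67 genes were lower (9.6% of the untested and 18.5% of the tested list) and 48 higher (9.7% and 16.9%). The bin medians by level went the same way in both comparisons, from 0.04 in the lowest bin to -0.03 in the seventh in tested rats, and the part of that shift in these shares was not tested.

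Among the 14 leading genes lower in 30W, 13 were also lower in 30C than in 1C, and 4 of them at an unadjusted p of 0.05. Cd180 was at 7.98, 7.88 and 7.99 in 1C and 7.64, 7.67 and 7.58 in 30C, again without overlap (-0.32, unadjusted p = 0.000943, limma adjusted p = 0.608). Dapp1 was at 6.87, 6.92 and 6.87 against 6.75, 6.63 and 6.63, also without overlap (-0.22, unadjusted p = 0.00361, limma adjusted p = 0.656). Spata32 had a difference of -0.11 and Fa2h one of -0.15, and Fez2 was the exception, at 0.06. Of the 14 leading genes higher in 30W, 8 were also higher in 30C than in 1C, and 3 of them at an unadjusted p of 0.05. Evx1 was at 6.39, 6.42 and 6.32 against 6.63, 6.64 and 6.65, and its difference of 0.26 (unadjusted p = 0.000401, limma adjusted p = 0.607) was as large as in untested rats. Itga10 had a difference of 0.22 and Or2ak4c one of 0.16. Bst2 was at 0.01 and RT1-CE13 at -0.07.

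**Figure D5:**
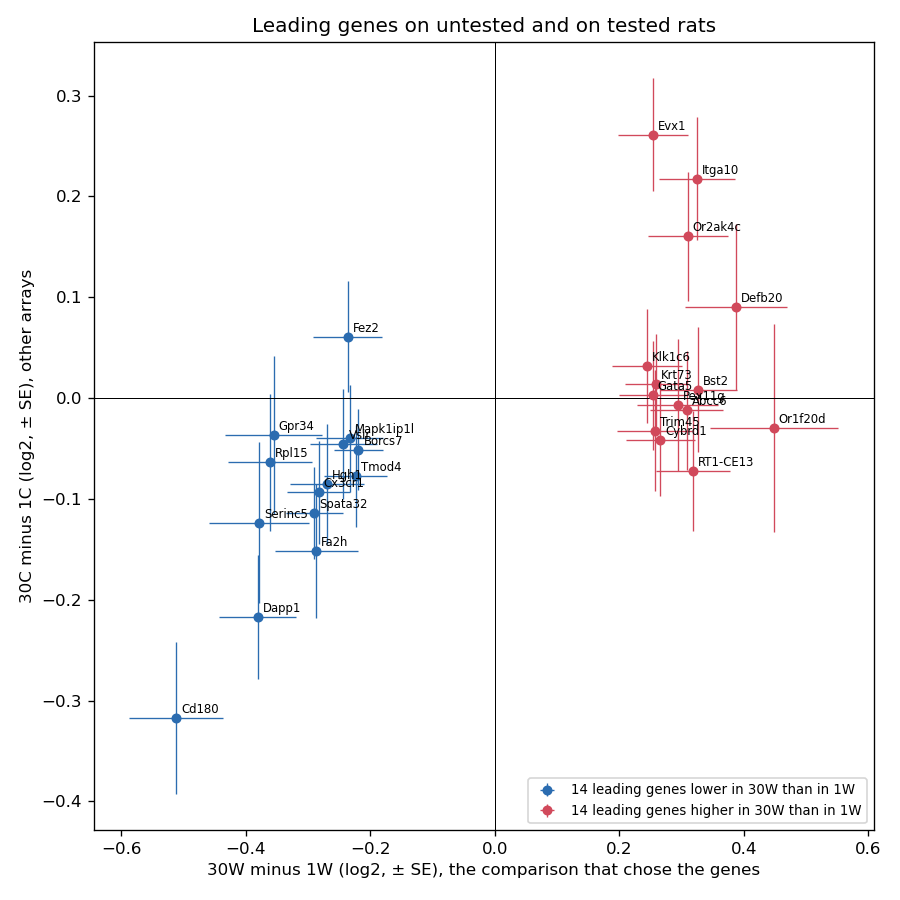
Difference 30C minus 1C (y axis, log2 ± SE) against difference 30W minus 1W (x axis, log2 ± SE) for the 28 leading genes, which were chosen on the x axis; the y axis comes from other arrays. Cd180 is lowest on both axes, at -0.51 and -0.32, and Evx1 is highest on the y axis, at 0.25 and 0.26, while Bst2 and RT1-CE13 lie near 0 on the y axis.

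The lists can be set side by side in the same way. Microglia markers were lower in 31 of 35 members in 30C against 1C, with a median of -0.08, and endothelial markers in 20 of 21, with a median of -0.10. Oligodendrocyte markers were lower in 23 of 34, with a median of -0.04, and cholinergic markers in 4 of 12. Of all genes, 55.7% were lower and 44.3% higher in this comparison. Spiny neuron markers were lower in 37 of 39 (median -0.12) and ependymal markers in 11 of 11 (median -0.23). In 30W against 1W only 21 and 3 of these were lower. Immediate early genes were higher in 48 of 54, with a median of 0.20 after the test against 0.05 without it. The interaction, which tests whether the effect of withdrawal length differs between untested and tested rats, passed 0 genes in limma (0.0%) and counted 357 (3.03%) at an unadjusted p of 0.05. Its smallest adjusted p was 0.999.

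With both comparisons averaged, 6 arrays against 6, limma passed 1 of 11778 genes (0.00849%). The gene was Cd180, which fell by 0.41 on the log2 scale from 1 to 30 days (limma adjusted p = 0.0288). It was lower on each of the 6 arrays of 30 days than on all 6 of 1 day. Dapp1, Evx1, Itga10 and Spata32 followed, with limma adjusted p-values up to 0.0594, and did not pass. The call of Cd180 was lost after median centring (limma adjusted p = 0.0649) and without any 1 of 9 arrays, which were Sal replicate 2, 1W replicates 1 and 2, 30W replicates 2 and 3, 1C replicates 1 and 3, and 30C replicates 2 and 3, with adjusted p-values up to 0.152. This average shares its arrays with 30W against 1W and is no separate evidence for it. The lower quartile of the arrays also separated these 6 from 6, and its part in the average was not tested beyond rescaling.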

How the data were processed

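Nucleus accumbens RNA of 15 samples was measured on Affymetrix rat arrays. The authors deposited log2 values, for which the submitters' processing notes name RMA; its software, version and filters are not stated there. The kit named in the labels is made for 3' arrays, but the identifiers belong to a whole-transcript design. Of 28826 probe sets, 15209 had 1 platform symbol, 306 several and 13311 were unnamed here; 15178 matched the RefSeq table (GRCr8), used for names. The 14497 genes were each given their probe set with the highest mean, and 11778 above the 30th percentile on at least 3 arrays were tested.

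Groups came from the labels. limma 3.58.1 in R 4.3.3 (lmFit, eBayes) fitted the 5 groups over 15 arrays (10 residual and 3.44 prior degrees of freedom), with two-sided p-values adjusted by Benjamini-Hochberg over all genes in each comparison. The fit was tested on simulated data. Lists were described by counts and medians, with no set test. Named genes were the 14 per direction with the smallest unadjusted p among genes whose arrays did not overlap (LOC and RGD numbers passed over), up to 5 non-overlapping members per list at an unadjusted p of 0.05 (2 members where there were none), and a set of genes of known interest; others named were chosen after their values were seen. Members and lists were chosen with earlier results of these data known. Alternatives covered filter, probe set, normalization, variance, array weights, arrays, replicate block, threshold, a cortical marker covariate and leaving out each array; subtraction of the level bin's median was added after the data were seen. With 3 arrays in each group, their number limits the precision.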

Additional observations from a re-analysis of the deposited data

How the results depend on the processing

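For 30W against 1W the count of genes past the adjusted threshold was 0 except with array weights (3, which were Cd180, Spata32 and RT1-CE13) and leaving out arrays (0 to 1). Replicate numbers did not pair the arrays (correlations of same-numbered deviations between -0.13 and 0.07). With the replicate block 1254 genes had an unadjusted p under 0.05 and 0 passed. Unadjusted counts were 720 to 1260 leaving out arrays and 138 at 1.2-fold or more. For 30C against 1C the adjusted count was 2 with array weights, 1 with the cortical covariate and 0 to 2 leaving out arrays; unadjusted counts were 104 at 1.2-fold or more and 437 to 848 leaving out arrays. The interaction count was 0 throughout. The averaged count, 1, was 2 above the 50th percentile, 4 after quantile normalization or common quartiles, 5 with the adjusted threshold at 0.10, 0 after median centring, 6 with array weights and 0 to 3 leaving out arrays. Averaged Cd180 was -0.38 after median centring and -0.46 to -0.39 leaving out arrays. The causes were not tested. Of 55 lists, 30 kept the sign of their median over the scalings.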

Other observations

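Several groups outside the main account also leaned one way without a gene past the adjusted threshold in limma. Of 26 genes of cholesterol and fatty acid synthesis, 23 were lower in 30W, with a median of -0.06 that stayed negative over the scalings (-0.06 to -0.01). In the level bin that holds their median level, 23.2% of all genes were higher. Idi1, which interconverts the first isoprenoid units, was at 7.13, 7.15 and 7.09 in 1W and 6.85, 6.78 and 6.90 in 30W (-0.28, SE 0.098, limma adjusted p = 0.385), without overlap. Dhcr7, of the last steps of the pathway, had a difference of -0.23 and Cyp51 one of -0.18. In 30C against 1C the same list was lower in 7 members and higher in 19.

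Sema5a, an axon guidance cue, was at 9.79, 9.85 and 9.69 against 9.62, 9.48 and 9.50 (-0.24, SE 0.062, limma adjusted p = 0.373). Chrnb4, a nicotinic receptor subunit, was at 7.23, 7.12 and 7.20 against 7.42, 7.41 and 7.32 (0.20, SE 0.054, limma adjusted p = 0.373). Casp1, the inflammatory caspase, was higher in 30W than in 1W by 0.27 (SE 0.097) and had a difference of -0.21 between 30C and 1C (interaction 0.48, unadjusted p = 0.00359, limma adjusted p = 0.999).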
